A study of Homo sapiens with 12 samples.

Results

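The genes examined were 10 writers and erasers of repressive chromatin and DNA marks: EZH1, EZH2, SUZ12 and EED of Polycomb repressive complex 2 (PRC2), the DNA methyltransferases DNMT1, DNMT3A and DNMT3B, and the dioxygenases TET1, TET2 and TET3. They were chosen by name as the core enzymes and subunits of these 3 systems, and are 10 of the 19447 gene symbols in the expression table. All 10 passed the filter on low counts in every comparison. Transcripts were measured by polyA-enriched RNA sequencing in 4 groups of 3 libraries. K562, a human cell line from chronic myeloid leukaemia that carries the BCR-ABL1 fusion, was untreated or treated with lycorine, an alkaloid from Amaryllidaceae plants (K562+L). K562/IM is a derivative made by stepwise exposure to the BCR-ABL1 kinase inhibitor imatinib and resistant to it. Its libraries were labelled as control (K562/IM) or as treated with lycorine (K562/IM+L). The study describes this line as growing in medium with imatinib, and the labels do not say whether the drug was present. Line and imatinib exposure therefore cannot be told apart. Each line is a single line, so a difference between K562 and K562/IM is a difference between these cultures, and the labels do not say whether the 3 libraries of a group came from separate cultures. The p-values therefore measure the spread between these libraries, which may be technical.

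The libraries held 75093844 to 107344598 counts, and the 10 genes had 1198 to 52553 counts per library. The fetal haemoglobin genes HBG1 and HBG2 and the erythroid factors GATA1 and KLF1 were present in every library, as is usual for K562. The T and B cell markers CD3E and MS4A1 and the monocyte marker CD14 were at or near 0. LYZ, a monocyte marker, was not absent, at 74.9 to 171 CPM (counts scaled to a common library size) across the 12 libraries, and CD3D stood at 21.3 to 23.0 CPM in K562/IM against at most 2.71 CPM elsewhere. The sample titles and the study's own drawings use different code names for the group labelled K562/IM+L, and its summed erythroid transcripts (11 genes) reached 31447 to 43733 CPM, against 2321 to 2504 CPM in K562/IM. Directions for this group rest on its label alone. In bulk RNA, fewer cells of a type and less RNA per cell cannot be told apart.

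PRC2 places methyl groups on lysine 27 of histone H3 (H3K27), a mark of silenced developmental genes. EZH2 or its paralog EZH1 is the catalytic subunit, and EED and SUZ12 are needed for activity and stability of the complex. EZH2 is typical of dividing cells and is a target of E2F factors, whereas EZH1 is found also in resting and differentiated cells. DNMT1 copies methylation onto the new strand after replication, DNMT3A and DNMT3B add methylation at unmethylated sites, and the TET enzymes oxidise 5-methylcytosine to 5-hydroxymethylcytosine (5hmC), a step towards its removal. Mutations of EZH2, DNMT3A and TET2 are frequent in myeloid disease.

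Promoter sequences of 4 of the genes are given because, of the 20 RefSeq promoter windows of the 10 genes (GRCh38.p14, each 250 bases before to 30 bases after a transcription start), 4 held the letters of an E2F site. Those searched on both strands were TTTCCCGC, TTTCGCGC, TTTGCCGC and TTTGGCGC, and 3.14% of all 35116 windows held at least one. The capitals mark the match, which in EZH1 and DNMT1 lies on the opposite strand. The windows are chr17:42745011-42745290 on the minus strand for EZH1, chr7:148884262-148884541 on the minus strand for EZH2, chr17:31936757-31937036 on the plus strand for SUZ12 and chr19:10194924-10195203 on the minus strand for DNMT1.
EZH1: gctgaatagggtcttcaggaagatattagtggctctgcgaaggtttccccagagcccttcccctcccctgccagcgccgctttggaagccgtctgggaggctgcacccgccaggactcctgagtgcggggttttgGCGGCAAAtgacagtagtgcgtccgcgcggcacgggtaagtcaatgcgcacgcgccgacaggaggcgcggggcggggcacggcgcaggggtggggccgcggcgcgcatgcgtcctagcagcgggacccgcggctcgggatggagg
EZH2: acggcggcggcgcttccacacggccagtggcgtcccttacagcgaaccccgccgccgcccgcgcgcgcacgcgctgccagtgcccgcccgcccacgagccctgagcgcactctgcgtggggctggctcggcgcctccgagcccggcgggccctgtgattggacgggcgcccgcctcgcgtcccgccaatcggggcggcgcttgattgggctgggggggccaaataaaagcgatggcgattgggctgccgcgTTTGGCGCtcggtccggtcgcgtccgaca
SUZ12: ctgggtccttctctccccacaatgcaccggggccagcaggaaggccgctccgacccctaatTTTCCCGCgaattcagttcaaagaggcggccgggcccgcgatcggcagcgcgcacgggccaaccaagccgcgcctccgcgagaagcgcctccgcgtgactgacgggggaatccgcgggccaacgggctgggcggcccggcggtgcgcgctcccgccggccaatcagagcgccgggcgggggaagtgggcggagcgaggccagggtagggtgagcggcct
DNMT1: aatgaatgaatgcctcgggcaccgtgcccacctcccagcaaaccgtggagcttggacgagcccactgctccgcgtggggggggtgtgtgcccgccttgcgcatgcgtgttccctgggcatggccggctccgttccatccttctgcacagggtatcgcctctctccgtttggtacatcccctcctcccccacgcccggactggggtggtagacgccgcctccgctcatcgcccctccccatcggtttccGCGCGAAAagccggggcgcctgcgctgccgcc
The EZH2 match began 1 base after the first transcribed base and the DNMT1 match 2 bases before it, while those of EZH1 and SUZ12 began 115 and 189 bases upstream. Counted on both strands, where the opposite strand reads as ATTGG here, the EZH2 window also held the letters CCAAT 4 times and the SUZ12 window once. By the same count, 33.6% of all windows held them. These matches are descriptions of the letters only, and the 4 genes differed in how they moved, as the values below show.

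To compare levels between genes, CPM were divided by the length of the coding transcripts' exons (CPM per kb). That length joins the exons of all coding transcripts of a gene, whichever of them the cells express. In untreated K562 the order was DNMT1 (78.4 ± 1.14 CPM per kb, SD, n = 3), EZH2 (69.6 ± 1.07), SUZ12 (32.3 ± 5.07), EED (24.5 ± 0.318), DNMT3B (20.8 ± 1.58), EZH1 (14.1 ± 0.592), DNMT3A (5.48 ± 0.234), TET3 (4.45 ± 1.16), TET1 (3.90 ± 0.989) and TET2 (1.22 ± 0.294). In this order only DNMT3A and TET3, and TET3 and TET1, had overlapping libraries. Thus the maintenance methyltransferase and the EZH2 subunit were the most abundant of these transcripts, and TET2 had the lowest mean per kb in all 4 groups. In CPM without the division by length, the TET1 mean was below that of TET2 in K562/IM (33.6 against 37.9 CPM) and in K562/IM+L (21.2 against 24.5 CPM). In K562+L, TET3 (9.33 ± 1.44 CPM per kb) stood clear above TET1 and DNMT3A, which overlapped each other. In K562/IM, DNMT3B (38.6 ± 1.58 CPM per kb) came next, above SUZ12 (34.7 ± 1.26). In the group labelled K562/IM+L, EZH2 (49.0 ± 1.32 CPM per kb) and DNMT1 (47.5 ± 4.53) overlapped at the top and EZH1 (38.3 ± 1.17) came next, above SUZ12 (25.4 ± 2.69).

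**Figure D1:**
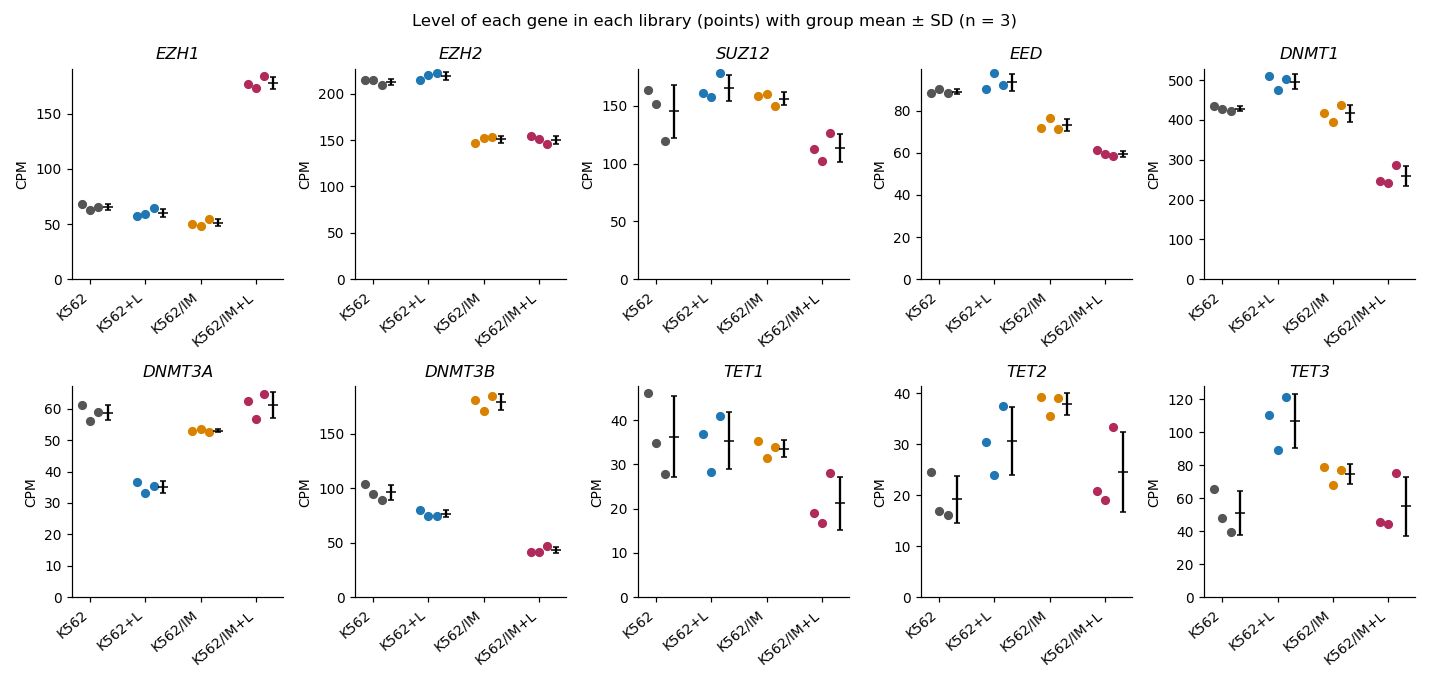
Level of each of the 10 genes in CPM (y axis from 0) in each of the 12 libraries (points, by group on the x axis), with the group mean ± SD (n = 3). EZH1 is at 173 to 184 CPM in the libraries labelled K562/IM+L and at 48.5 to 68.1 CPM in the other 9, and DNMT3B runs from 41.3 to 185 CPM.

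Comparisons were made with edgeR's quasi-likelihood test, and a gene was called at a Benjamini-Hochberg adjusted p under 0.05 over all genes tested. Lycorine in K562 (K562+L against K562) gave 3 genes higher (DNMT1, TET2 and TET3) and 2 lower (DNMT3A and DNMT3B) of the 10, where 37.3% of 12927 genes were called, 18.2% higher and 19.0% lower. K562/IM against K562 gave 3 higher (DNMT3B, TET2 and TET3) and 3 lower (EZH1, EZH2 and EED), with 57.1% of 13406 genes called, 30.1% higher and 27.1% lower. Set against K562/IM, the K562/IM+L libraries gave 2 higher (EZH1 and DNMT3A) and 6 lower (SUZ12, EED, DNMT1, DNMT3B, TET1 and TET2), with 66.8% of 13727 genes called, 33.2% higher and 33.6% lower. Set against K562 they gave 1 higher (EZH1) and 5 lower (EZH2, EED, DNMT1, DNMT3B and TET1), with 56.0% of 13307 genes called, 28.2% higher and 27.8% lower. So many genes moved in every comparison that a call alone says little about these 10, and the sizes follow. With a fold over 2 as well, the called genes were TET3 in K562+L (6.39% of all genes), none in K562/IM against K562 (19.1%), and EZH1 and DNMT3B for K562/IM+L, whether the reference was K562/IM (28.5%) or K562 (23.8%). The 3 comparisons against K562 share its libraries, as do the 2 that involve K562/IM.

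**Figure D2:**
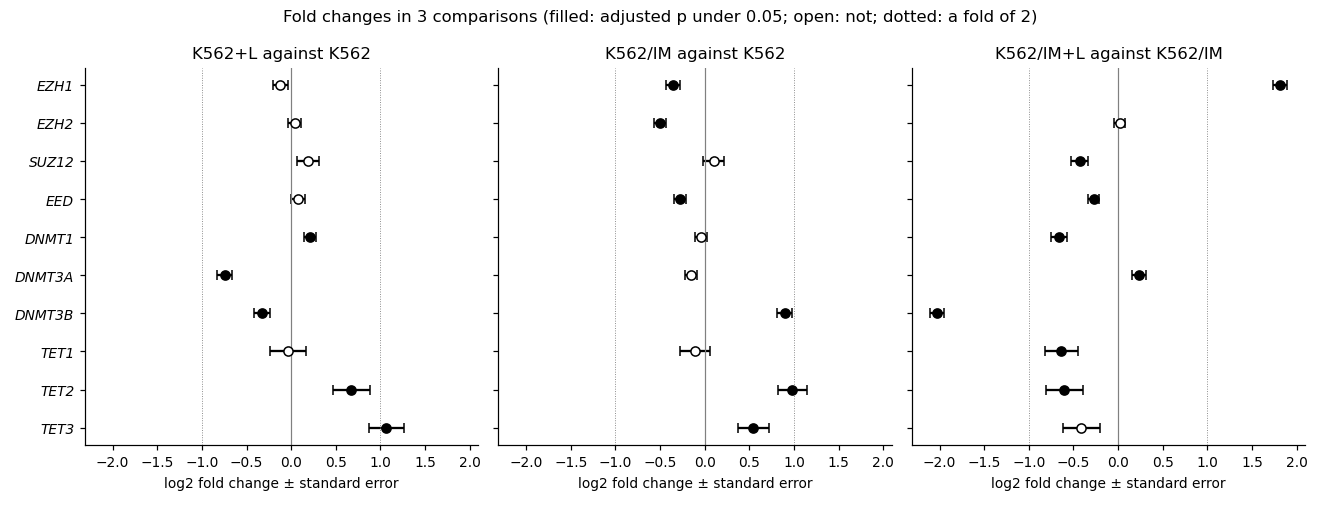
Log2 fold change ± standard error (x axis) of the 10 genes (y axis) in 3 comparisons, with filled points at an adjusted p under 0.05 and dotted lines at a fold of 2. The 2 points farthest from 0 are EZH1 (1.82) and DNMT3B (-2.03) in K562/IM+L against K562/IM, and EZH2 lies at 0.017 in the same panel.

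EZH1 (ENSG00000108799.12, chromosome 17, 42700275 to 42745049, minus strand, GRCh38) stood at 68.1, 62.6 and 65.8 CPM in K562, at 57.1, 59.4 and 64.2 CPM in K562+L, at 50.3, 48.5 and 54.8 CPM in K562/IM and at 176, 173 and 184 CPM in the libraries labelled K562/IM+L. That group lay far above the other 9 libraries, K562/IM lay below K562 without overlap, and K562+L overlapped K562. The difference was 3.53-fold between K562/IM+L and K562/IM (log2 fold change 1.82 ± 0.077, SE; edgeR adjusted p = 1.59e-06) and 2.67-fold between K562/IM+L and K562 (1.42 ± 0.080; edgeR adjusted p = 1.74e-05). It fell by 0.35 on the log2 scale in K562/IM against K562 (SE 0.078, edgeR adjusted p = 0.00574), while K562+L differed from K562 by -0.12 ± 0.086 (edgeR adjusted p = 0.300), which did not pass the test.

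EZH2 (ENSG00000106462.10, chromosome 7, 148807383 to 148884321, minus strand) showed another pattern. It stood at 215, 215 and 209 CPM in K562, at 214, 220 and 222 CPM in K562+L, at 146, 152 and 154 CPM in K562/IM and at 154, 151 and 146 CPM in K562/IM+L. The libraries separated by line and overlapped within each line. EZH2 was 1.41-fold lower in K562/IM than in K562 (log2 fold change -0.50 ± 0.064, SE; edgeR adjusted p = 3.99e-04). The difference with lycorine was 0.039 ± 0.072 in K562 (edgeR adjusted p = 0.695) and 0.017 ± 0.062 in K562/IM (edgeR adjusted p = 0.819), so neither passed the test.

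Of the non-catalytic subunits, EED, which reads the H3K27 mark and anchors the complex, stood at 88.3, 90.3 and 88.3 CPM in K562, 90.2, 98.0 and 92.3 CPM in K562+L, 71.9, 76.6 and 71.4 CPM in K562/IM and 61.2, 59.4 and 58.4 CPM in K562/IM+L. K562/IM lay below K562 and K562/IM+L below K562/IM, both without overlap. EED fell by 0.28 on the log2 scale in K562/IM against K562 (SE 0.067, edgeR adjusted p = 0.00814) and by 0.27 in K562/IM+L against K562/IM (SE 0.063, edgeR adjusted p = 0.00616). The first of these calls was lost without K562/IM replicate 1 (edgeR adjusted p = 0.0511) and with the transcript-length covariate (edgeR adjusted p = 0.0535). SUZ12, the scaffold subunit, stood at 164, 152 and 120 CPM in K562, 161, 157 and 178 CPM in K562+L, 158, 160 and 149 CPM in K562/IM and 113, 102 and 126 CPM in K562/IM+L. Only K562/IM+L and K562/IM did not overlap among the compared pairs, with a fall of 0.43 on the log2 scale (SE 0.093, edgeR adjusted p = 0.00456), and the spread among K562 libraries (SD 22.8 CPM) was the widest of any group. With the transcript-length measure described below as a covariate, this SUZ12 difference was -0.12 (edgeR adjusted p = 0.400).

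The balance of the catalytic subunits was also read within each library, where scaling cancels. EZH2 made up 83.1% ± 0.640 of EZH1 plus EZH2 (CPM per kb; SD, n = 3) in K562, 84.7% ± 0.565 in K562+L, 81.7% ± 0.843 in K562/IM and 56.1% ± 1.33 in K562/IM+L. The share was thus 25.5 percentage points lower in K562/IM+L than K562/IM, where the pooled SD was 1.11 points. No groups compared overlapped, and each comparison had an exact two-sided permutation p = 0.1, the smallest that 3 against 3 libraries allow, so that test cannot reach 0.05 here.

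DNMT1 (ENSG00000130816.15, chromosome 19, 10133345 to 10231286, minus strand), the maintenance enzyme, stood at 434, 428 and 421 CPM in K562, 510, 475 and 503 CPM in K562+L, 416, 395 and 437 CPM in K562/IM and 248, 242 and 287 CPM in K562/IM+L. K562/IM+L was below all other libraries. It was 1.58-fold lower than K562/IM (log2 fold change -0.66 ± 0.091, SE; edgeR adjusted p = 4.72e-04) and 1.68-fold lower than K562 (-0.75 ± 0.089; edgeR adjusted p = 3.90e-04). With the transcript-length covariate the first of these was -0.33 ± 0.085 (edgeR adjusted p = 0.0175). K562+L lay above K562 by 0.21 ± 0.070 (edgeR adjusted p = 0.0438), a call that was lost whichever of the 6 libraries was left out (highest adjusted p 0.153).

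DNMT3B (ENSG00000088305.18, chromosome 20, 32762385 to 32809356, plus strand) differed between all 4 groups. It stood at 104, 94.7 and 89.6 CPM in K562, 80.1, 74.8 and 74.7 CPM in K562+L, 181, 171 and 185 CPM in K562/IM and 41.6, 41.3 and 46.6 CPM in K562/IM+L. No 2 groups overlapped: K562/IM was highest and K562/IM+L lowest. DNMT3B was 1.86-fold higher in K562/IM than in K562 (log2 fold change 0.90 ± 0.081, SE; edgeR adjusted p = 7.51e-05). In K562/IM+L it was 4.08-fold lower than in K562/IM (-2.03 ± 0.082; edgeR adjusted p = 1.35e-06) and 2.26-fold lower than in K562 (-1.18 ± 0.093; edgeR adjusted p = 6.19e-05). In K562+L it was 1.26-fold lower than in K562 (-0.33 ± 0.090; edgeR adjusted p = 0.0236), a call that 4 of the 6 fits without 1 library lost, those without K562 replicate 2 or without any 1 of the K562+L replicates (highest adjusted p 0.0836).

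DNMT3A (ENSG00000119772.16, chromosome 2, 25227855 to 25342590, minus strand), the other enzyme of new methylation, did not follow DNMT3B. It stood at 61.3, 56.3 and 58.8 CPM in K562, 36.6, 33.0 and 35.5 CPM in K562+L, 53.0, 53.5 and 52.5 CPM in K562/IM and 62.6, 56.7 and 64.7 CPM in K562/IM+L. Only K562+L stood well apart, at 1.68-fold below K562 (log2 fold change -0.75 ± 0.086, SE; edgeR adjusted p = 8.72e-04). K562/IM+L was above K562/IM by 0.23 ± 0.074 (edgeR adjusted p = 0.0246), a call lost without any 1 of the K562/IM replicates or without K562/IM+L replicate 1 (highest adjusted p 0.0865), and 0.42 with the transcript-length covariate (edgeR adjusted p = 0.0139). K562/IM lay below K562 without overlap, but the difference of -0.15 ± 0.069 did not pass the test (edgeR adjusted p = 0.0961).

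Within libraries, the log2 ratio of DNMT3A to DNMT3B (CPM per kb) was -1.92 ± 0.087 in K562 (SD, n = 3), -2.34 ± 0.052 in K562+L, -2.97 ± 0.073 in K562/IM and -0.71 ± 0.074 in K562/IM+L. Per kb, DNMT3B was therefore the more abundant in all 12 libraries, by the most in K562/IM and by the least in K562/IM+L. In CPM without the division by length, K562/IM+L had the other order, with DNMT3A at 61.3 ± 4.17 and DNMT3B at 43.2 ± 2.98 CPM. The log2 ratio of DNMT1 to DNMT3A plus DNMT3B was 1.58 ± 0.075 in K562, 2.20 ± 0.040 in K562+L, 0.81 ± 0.026 in K562/IM and 1.66 ± 0.049 in K562/IM+L. It was higher in the lycorine group of each line, and K562/IM+L overlapped K562 (exact two-sided permutation p = 0.2), whereas each of the other compared pairs of either ratio was at the exact minimum, p = 0.1.

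**Figure D3:**
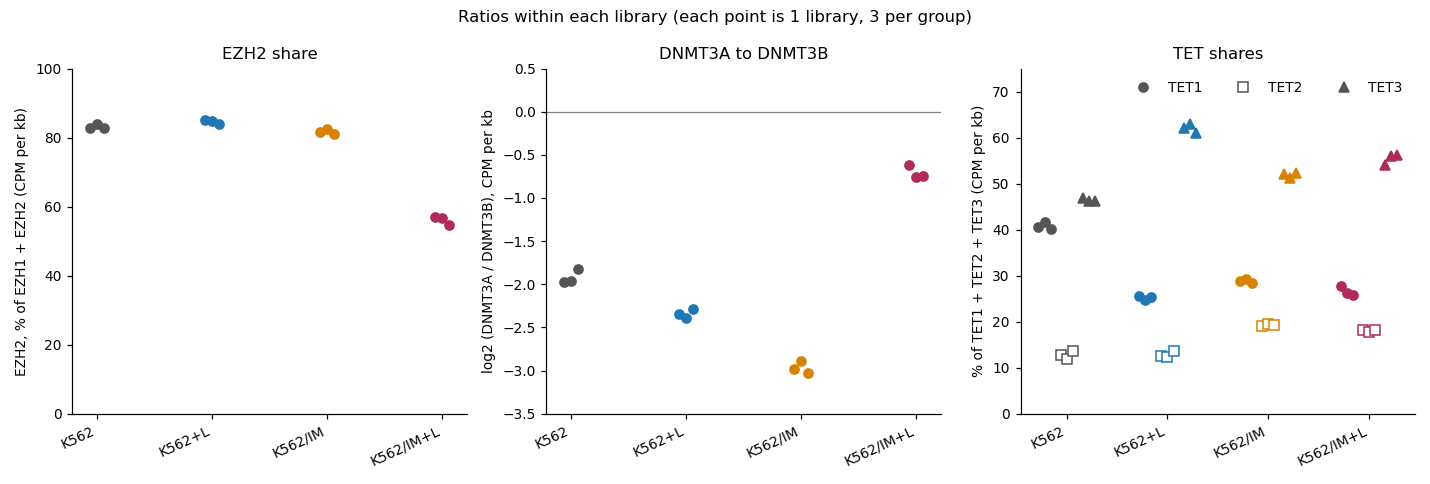
Ratios within each library (1 point per library, 3 per group on the x axis), from CPM per kb. Left, EZH2 as a percent of EZH1 plus EZH2. Centre, log2 of DNMT3A over DNMT3B, which is nearest to 0 in K562/IM+L (-0.71). Right, the percent of the TET total that TET1 (circles), TET2 (open squares) and TET3 (triangles) each hold, where the TET1 mean is 40.8% in K562 and 25.2 to 28.9% in the other groups.

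The TET transcripts are long, at 9.29 kb of exon for TET1, 15.73 kb for TET2 and 11.48 kb for TET3, and they moved together from library to library. DNMT3A has 10.74 kb of exon by the same count, which joins all its coding transcripts. Which of them these cells express was not tested. The SD of DNMT3A among K562 libraries was 4.27% of its mean CPM, against 24.1 to 26.1% for the TET genes. DNMT3A also had a log2 fold change of -0.75 in K562+L against K562. A length score was taken for each library as the median log2 deviation of the 1369 longest genes (8.02 kb or more) minus that of the 1369 shortest (1.5 kb or less). Relative to its group mean the score was 0.31 in K562 replicate 1, where the 3 TET genes were 0.37 to 0.39 above their group means (log2), and -0.31 in K562 replicate 3, where they were 0.22 to 0.35 below. In K562/IM+L replicate 3 it was 0.38, with the TET genes 0.42 to 0.50 above. The score also differed between groups: these longest genes had a median log2 fold change of 0.29 and the shortest of -0.40 in K562+L against K562, 0.37 and -0.35 in K562/IM against K562, and -0.39 and 0.46 in K562/IM+L against K562/IM. Each TET level below is therefore followed by its value with this score as a covariate, a setting chosen after the data were seen, and the part of transcript length in the TET differences was not tested beyond that.

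**Figure D4:**
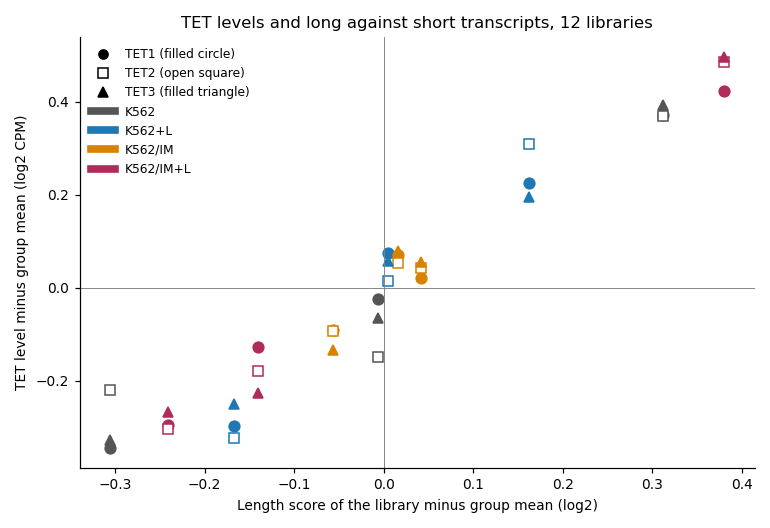
TET1, TET2 and TET3 levels of each library minus the mean of its group (log2 CPM, y axis) against the library's length score minus its group mean (log2, x axis), for 12 libraries coloured by group. Both are measured in the same libraries, and the points run from -0.35 for TET1 in K562 replicate 3 to 0.50 for TET3 in K562/IM+L replicate 3.

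TET3 stood at 65.8, 47.7 and 39.8 CPM in K562, 110, 89.1 and 122 CPM in K562+L, 78.7, 67.8 and 77.3 CPM in K562/IM and 45.5, 44.2 and 75.5 CPM in K562/IM+L. K562+L was above K562 without overlap, and K562/IM+L spread over a range that reached both K562 and K562/IM. TET3 was 2.09-fold higher in K562+L than in K562 (log2 fold change 1.07 ± 0.19, SE; edgeR adjusted p = 0.00521), which with the length score as a covariate was 0.43 (edgeR adjusted p = 0.0219). In K562/IM it was 0.55 ± 0.17 above K562 (edgeR adjusted p = 0.0288), and with the covariate -0.13 (edgeR adjusted p = 0.359), and the call was lost without K562 replicate 2 or without K562/IM replicate 1 or 3 (highest adjusted p 0.0913). K562/IM+L differed from K562/IM by -0.41 ± 0.21 (edgeR adjusted p = 0.116), and with the covariate by 0.52 (edgeR adjusted p = 0.00684), so the sign of that difference turned.

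TET2 stood at 24.5, 17.0 and 16.1 CPM in K562, 30.5, 24.0 and 37.5 CPM in K562+L, 39.3, 35.5 and 39.0 CPM in K562/IM and 20.9, 19.1 and 33.5 CPM in K562/IM+L. Of the compared pairs, K562/IM against K562 and K562/IM+L against K562/IM did not overlap. TET2 was 1.97-fold higher in K562/IM than in K562 (log2 fold change 0.98 ± 0.16, SE; edgeR adjusted p = 0.00138), or 0.42 with the covariate (edgeR adjusted p = 0.0557). The difference of K562+L from K562 was 0.67 ± 0.21 (edgeR adjusted p = 0.0345), or 0.031 with the covariate (edgeR adjusted p = 0.914), and the call was lost without K562 replicate 2 or 3 or without K562+L replicate 1 or 3 (highest adjusted p 0.112). K562/IM+L differed from K562/IM by -0.60 ± 0.21 (edgeR adjusted p = 0.0331), which turned to 0.32 with the covariate (edgeR adjusted p = 0.0371) and was called in 1 of the 6 fits without 1 library, the one without K562/IM+L replicate 3 (highest adjusted p 0.0998).

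TET1, an enzyme typical of early embryonic cells, stood at 46.1, 34.9 and 27.8 CPM in K562, 36.8, 28.3 and 40.9 CPM in K562+L, 35.2, 31.5 and 34.0 CPM in K562/IM and 18.9, 16.8 and 27.9 CPM in K562/IM+L. The first 3 groups overlapped, and K562/IM+L lay below K562/IM. The difference there was -0.64 ± 0.19 (edgeR adjusted p = 0.0181), or 0.19 with the covariate (edgeR adjusted p = 0.216), and it was lost without K562/IM replicate 1 or 3 or K562/IM+L replicate 1 (highest adjusted p 0.0596). Without the covariate TET1 in K562+L and K562/IM differed from K562 by -0.037 ± 0.20 and -0.11 ± 0.17 (edgeR adjusted p = 0.901 and 0.595), and with it by -0.71 and -0.77 (edgeR adjusted p = 0.00612 and 0.00114).

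Shares of the TET total within a library (CPM per kb) varied far less between replicates than the levels did. TET1 held 40.8% ± 0.900 of the total in K562 (SD, n = 3), 25.2% ± 0.434 in K562+L, 28.9% ± 0.432 in K562/IM and 26.6% ± 1.08 in K562/IM+L. TET3 held 46.4% ± 0.318, 61.9% ± 0.992, 51.9% ± 0.614 and 55.4% ± 1.16 in the same order of groups, and TET2 held 12.8% ± 0.855, 12.9% ± 0.745, 19.3% ± 0.257 and 18.0% ± 0.265. In K562 the TET1 share was thus close to that of TET3, and TET3 held at least 51.2% in every library of the other groups. TET2 had a larger share in both K562/IM groups than in both K562 groups. For TET2 K562+L overlapped K562 (exact two-sided permutation p = 0.9), and all other compared pairs of the 3 shares were at the exact minimum, p = 0.1.

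The lycorine difference itself was compared between the lines with an interaction term over all 12 libraries, in which 61.7% of 13995 genes were called, 29.9% higher and 31.7% lower. Of the 10 genes, 2 were higher in the K562/IM difference than in the K562 difference and 6 lower, and 4 of these 8 passed a fold of 2, as 33.7% of all genes did. EZH1 differed by 1.92 ± 0.10 on the log2 scale (edgeR adjusted p = 3.39e-08) and DNMT3A by 0.96 ± 0.10 (edgeR adjusted p = 7.91e-06). DNMT3B differed by -1.72 ± 0.11 (edgeR adjusted p = 1.49e-07) and DNMT1 by -0.90 ± 0.10 (edgeR adjusted p = 1.77e-05). SUZ12 (-0.64 ± 0.16), TET2 (-1.30 ± 0.32) and TET3 (-1.50 ± 0.31) were called too, but with the length covariate they were at 0.039, 0.23 and 0.037 and were not called, and DNMT1 was at -0.57 (edgeR adjusted p = 0.00336). For EZH2 the term was -0.045 ± 0.078 (edgeR adjusted p = 0.640). The median over the 10 genes was -0.63, against -0.020 over all genes. For the longest genes of the length score the median of this term was -0.72, and for the shortest 0.78. The part of transcript length in the median of the 10 genes was not tested.

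The partners of these genes were examined in lists chosen for their roles. Their counts are to be read against the share of all genes called, which was 37.3% in K562+L against K562, 57.1% in K562/IM against K562 and 66.8% in K562/IM+L against K562/IM, and against the medians of all genes given with the first list. Of 9 accessory PRC2 genes, 1 was higher and 2 lower in K562+L against K562 (median of the log2 fold changes -0.032, all genes -1.17e-04), 2 were higher and 0 lower in K562/IM against K562 (median 0.014, all genes 0.042), and 0 were higher and 5 lower in K562/IM+L against K562/IM (median -0.26, all genes -0.0069). The 5 were RBBP4, RBBP7, AEBP2, MTF2 and EPOP, named after their values were seen, and none of them passed a fold of 2. EPOP, which links PRC2 to elongin, did so against K562, at 5.53 ± 1.39 against 11.1 ± 0.797 CPM (log2 fold change -1.02 ± 0.21; edgeR adjusted p = 0.00479). JARID2, which guides PRC2 to its targets, stood at 68.7 ± 9.83 CPM in K562 and 117 ± 0.900 CPM in K562/IM (0.77 ± 0.11; edgeR adjusted p = 5.70e-04), and was also named after its values were seen.

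PRC1, which ubiquitinates histone H2A at Polycomb targets, was represented by 21 genes. In K562+L 3 were higher and 3 lower than in K562 (median of the log2 fold changes 0.015), in K562/IM 7 were higher and 1 lower than in K562 (median -0.0067), and in K562/IM+L 6 were higher and 8 lower than in K562/IM (median -0.10). The 14 called of 21 in the last comparison lie at the share of all genes. Subunits changed in opposite directions in K562/IM+L. The E3 ligase subunit RING1 (64.3 ± 3.82 to 128 ± 14.4 CPM; log2 fold change 1.01 ± 0.096; edgeR adjusted p = 7.17e-05) and the chromobox protein CBX8 (14.9 ± 0.624 to 32.3 ± 4.28 CPM; 1.14 ± 0.11) were higher than in K562/IM. PCGF2, a RING partner (28.2 ± 2.35 to 11.4 ± 2.22 CPM; -1.29 ± 0.15), and CBX6 (41.9 ± 2.48 to 19.7 ± 0.609 CPM; -1.07 ± 0.077) were lower. PHC1, of the canonical complex, was 14.9 ± 1.42 CPM in K562 and 31.3 ± 1.41 CPM in K562/IM (1.07 ± 0.096).

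Of 5 genes that remove these marks or serve the enzymes that do, 3 were higher in K562+L than in K562 and the same number in K562/IM than in K562. They were in both cases the H3K27 demethylase genes KDM6A and KDM6B and the BAP1 cofactor gene ASXL1, named after their values were seen. KDM6B stood at 26.1 ± 2.57 CPM in K562, 48.7 ± 1.58 CPM in K562+L (log2 fold change 0.90 ± 0.099; edgeR adjusted p = 7.38e-04) and 38.2 ± 0.694 CPM in K562/IM (0.55 ± 0.091; edgeR adjusted p = 0.00147). In K562/IM+L against K562/IM, 1 was higher and 2 were lower. ASXL2 was 133 ± 5.90 CPM in K562/IM and 63.2 ± 19.9 CPM in K562/IM+L (-1.05 ± 0.20; edgeR adjusted p = 0.00263). Its K562 libraries spread widely, at 72.4 ± 52.2 CPM, and K562/IM+L did not pass the test against K562 (-0.22 ± 0.63; edgeR adjusted p = 0.784).

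Among 11 partners of DNA methylation, 10 were tested. DNMT3L, the regulator of the DNMT3 enzymes in germ cells, was the exception, at 0 to 11 counts per library. In K562+L 3 were higher and 1 lower than in K562, in K562/IM 2 were higher and 3 lower than in K562, and in K562/IM+L 2 were higher and 6 lower than in K562/IM (medians 0.22, 0.095 and -0.30). UHRF1, which brings DNMT1 to hemimethylated DNA, was 89.5 ± 4.08 CPM in K562, 123 ± 6.39 CPM in K562+L, 75.6 ± 3.23 CPM in K562/IM and 34.5 ± 0.238 CPM in K562/IM+L, which is lower than K562/IM by -1.11 ± 0.067 (edgeR adjusted p = 7.82e-06). HELLS, a remodeller needed for methylation of repeats, fell from 22.2 ± 1.55 to 8.88 ± 1.31 CPM in the same comparison (-1.30 ± 0.13; edgeR adjusted p = 1.00e-04).

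The 8 genes of the 5hmC pathway and its cofactor included the isocitrate dehydrogenases, which make the α-ketoglutarate that TET enzymes use. IDH1 stood at 48.7 ± 2.86 CPM in K562 and 14.4 ± 0.796 CPM in K562+L (log2 fold change -1.76 ± 0.094; edgeR adjusted p = 4.81e-05), and at 70.5 ± 2.45 CPM in K562/IM and 41.6 ± 1.27 CPM in K562/IM+L (-0.74 ± 0.066). IDH2, the mitochondrial enzyme, was 74.0 ± 10.7 CPM in K562, 37.1 ± 4.31 CPM in K562+L (-0.996 ± 0.13; edgeR adjusted p = 0.00157, a value added after it was seen) and 166 ± 12.7 CPM in K562/IM+L (1.15 ± 0.13 against K562; edgeR adjusted p = 3.01e-04). In K562/IM it was 109 ± 1.42 CPM, and K562/IM+L differed from K562/IM by 0.63 ± 0.074 (edgeR adjusted p = 2.08e-04), values also added after they were seen. CXXC4, a TET2-binding protein gene, had 58, 48 and 63 counts in K562/IM and 0 counts in the other 9 libraries. In the list, 1 of 7 tested was higher and 3 were lower in K562+L against K562, 3 of 8 higher and 1 lower in K562/IM against K562, and 3 of 8 higher and 4 lower in K562/IM+L against K562/IM.

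HOX genes are classical Polycomb targets, and 25 to 27 of the 39 were tested. In K562+L 0 were higher and 5 lower than in K562, in K562/IM 9 were higher and 4 lower than in K562, and in K562/IM+L 11 were higher and 9 lower than in K562/IM (medians -0.28, 0.14 and -0.17). The calls were 5 of 25, 13 of 25 and 20 of 27. The first is below the share of all genes (37.3%), and the other counts are near it (57.1% and 66.8%). HOXB5 stood at 3.96 ± 0.771 CPM in K562 and 1.89 ± 0.323 CPM in K562+L (log2 fold change -1.07 ± 0.21; edgeR adjusted p = 0.00747). HOXC12 had 8, 42 and 24 counts in K562, 334, 363 and 379 counts in K562/IM and 58, 30 and 58 counts in K562/IM+L, with a log2 fold change of 3.63 ± 0.46 in K562/IM against K562 (edgeR adjusted p = 4.08e-04) and of -2.65 ± 0.24 in K562/IM+L against K562/IM (edgeR adjusted p = 6.10e-05). HOXB13 had 14, 21 and 22 counts in K562 and 126, 97 and 80 in K562/IM, and HOXA6 and HOXD12 had at most 41 and 40 counts in any library. In K562/IM+L against K562/IM, HOXD12 was higher (4.27 ± 1.07; edgeR adjusted p = 0.00901) and HOXA6 lower (-3.06 ± 1.05; edgeR adjusted p = 0.0338). With a fold over 2, 7 HOX genes were called higher and 4 lower there. Of 9 germline genes that DNA methylation silences in somatic cells, 2 were tested. STK31 was 4.20 ± 0.238 CPM in K562/IM and 23.5 ± 1.37 CPM in K562/IM+L (2.50 ± 0.10; edgeR adjusted p = 1.37e-06). SYCP3, the other gene tested, was 0.831 ± 0.127 and 0.764 ± 0.0552 CPM (-0.099 ± 0.27; edgeR adjusted p = 0.761), and the 7 others did not pass the filter on low counts.

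**Figure D5:**
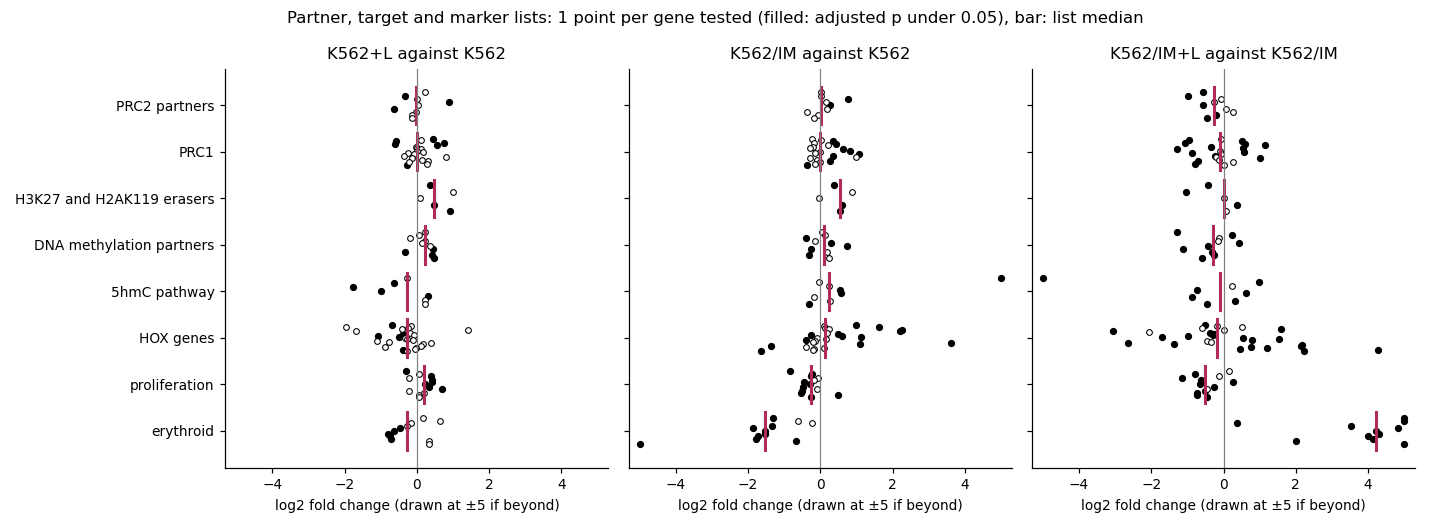
Log2 fold change (x axis, drawn at ±5 where beyond) of each gene tested in 8 lists (y axis) in 3 comparisons, with filled points at an adjusted p under 0.05 and a bar at the list median. In K562/IM+L against K562/IM the erythroid median is 4.23 and the proliferation median -0.51, while the PRC2, PRC1, DNA methylation and 5hmC medians lie between -0.30 and -0.10.

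Transcripts of cell division and of the erythroid lineage moved between the same groups, and their part in the differences of the 10 genes was not tested. Of 13 proliferation genes, 6 were higher and 1 lower in K562+L against K562, 1 higher and 9 lower in K562/IM against K562, and 1 higher and 9 lower in K562/IM+L against K562/IM. Their summed level was 4986 to 5080 CPM in K562, 5669 to 5895 CPM in K562+L, 4284 to 4357 CPM in K562/IM and 2918 to 3104 CPM in K562/IM+L, so the group lowest in DNMT1, UHRF1 and HELLS was also lowest in this sum. PCNA, the replication clamp, was 195 ± 22.4 CPM in K562/IM and 135 ± 25.6 CPM in K562/IM+L (log2 fold change -0.51 ± 0.15; edgeR adjusted p = 0.0177), while its difference of -0.20 ± 0.11 in K562+L against K562 did not pass the test (edgeR adjusted p = 0.172). MKI67 was 385 ± 81.2 CPM in K562 and 624 ± 115 CPM in K562+L (0.69 ± 0.18; edgeR adjusted p = 0.0178), and its difference of -0.46 ± 0.18 in K562/IM+L against K562/IM did not pass (edgeR adjusted p = 0.0563). Of 11 erythroid genes, all were higher under the K562/IM+L label than in K562/IM, led by SLC4A1, the band 3 anion exchanger, which stood at 987 ± 53.7 CPM against 0.122 ± 0.0562 CPM, 9 were lower in K562/IM than in K562, and 5 were lower and 0 higher in K562+L than in K562. The group highest in EZH1 was thus the group highest in the erythroid sum, whereas K562/IM, lowest in EZH1, was lowest in that sum.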

How the data were processed

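PolyA-enriched RNA was sequenced in 12 libraries, 4 groups of 3. The submitters' processing notes name FastQC, STAR, StringTie, DESeq2 and the build hg38, without versions, and the annotation is not given in the sources used here. The authors deposited counts per gene symbol, which are whole numbers and not normalized. Of the 23289 values from 1 to 25, 67.9% were divisible by 4 or left a remainder of 1, as do 52% of the whole numbers in that range, and a fit on counts divided by 4 was tried. From the counts, edgeR 4.0.16 (R 4.3.3) was run with TMM factors, filterByExpr (minimum count 10) and the quasi-likelihood test on the 6 libraries of each comparison, and on all 12 for the interaction, with Benjamini-Hochberg adjustment over all genes tested at 0.05. The standard error is the log2 fold change over the root of the F statistic. CPM use TMM factors over 12 libraries, and CPM per kb use the union of coding exons in GENCODE 29 (GRCh38), which gave a length for 18914 of 19447 symbols. The gene positions are from the same annotation, and promoters from RefSeq matched all 10 genes. Ratios within libraries were compared by exact two-sided permutation tests. Groups came from the labels. The 10 genes and the partner lists were chosen with earlier results of these data known. Partner genes were named by rule, at most 4 per list and comparison (3 for HOX, germline, proliferation and erythroid genes) with the largest change among those called with a fold over 2, plus MKI67 and PCNA. Others are said in the text to be named after their values were seen. Some genes that the rule or the marker list holds are not reported here. Libraries of a group differed well beyond counting error, so none was treated as a duplicate. In simulated data for K562/IM+L against K562/IM, 90 of 94 genes changed by 1 on the log2 scale and 99 of 106 changed by 2 were recovered, with 6 false calls in 13534 genes. For the interaction they were 65 of 94 and 96 of 106, with 5 false calls in 13713 genes. Both runs changed only these 94 and 106 genes. They gave every gene the same relative spread beyond counting, and the libraries no difference along transcript length. In the data, 66.8% of genes were called in K562/IM+L against K562/IM and 61.7% in the interaction. The spread also differed between genes, and libraries differed along transcript length. Recovery and false calls under these conditions were not tested. Alternatives were DESeq2 1.42.0, other scaling factors, other filters, a fit over all 12 libraries, a replicate block, the length score as a covariate, and leaving out each library.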

Additional observations from a re-analysis of the deposited data

Results flagged for a closer look

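The difference that goes with lycorine was not the same in K562 and in K562/IM for 8 of the 10 genes, by the interaction term of edgeR over 12 libraries (adjusted p under 0.05, where 61.7% of all genes tested passed). On the log2 scale, the K562/IM difference minus the K562 difference was 1.92 for EZH1 and 0.96 for DNMT3A. It was -0.64 for SUZ12, -0.37 for EED, -0.90 for DNMT1, -1.72 for DNMT3B, -1.30 for TET2 and -1.50 for TET3. With the length score as a covariate, chosen after the data were seen, EZH1 (2.11), DNMT3A (1.19), DNMT3B (-1.36), DNMT1 (-0.57) and EED (-0.47) were still called, while SUZ12 (0.039), TET2 (0.23) and TET3 (0.037) were not and their sign turned.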

How the results depend on the processing

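EZH1, EZH2 and DNMT3B in K562/IM against K562, EZH1, EED, DNMT1 and DNMT3B in K562/IM+L against K562/IM, and DNMT3A and TET3 in K562+L against K562 were called in all 15 alternatives of their comparison. The count of called genes was 5 in K562+L against K562, and 3 with the replicate block, 2 to 4 with 1 library left out and 1 with a fold over 2. In K562/IM against K562 it was 6, and 0 with a fold over 2. In K562/IM+L against K562/IM it was 8, and 5 to 9 with 1 library left out and 2 with a fold over 2. In K562/IM+L against K562 it was 6, and 2 with a fold over 2, and for the interaction it was 8, and 4 with a fold over 2. The TET2 share in K562+L minus K562 was 0.0525 percentage points, and with 1 library left out it ran from -0.377 (without K562+L replicate 3; -0.354 without K562 replicate 2) to 0.498 (without K562 replicate 3). Signs turned with the length covariate for SUZ12 (-0.17 in K562+L against K562, -0.28 in K562/IM against K562, 0.039 in the interaction), for TET3 in K562/IM against K562 (-0.13), for EZH2 (-0.031), TET1 (0.19), TET2 (0.32) and TET3 (0.52) in K562/IM+L against K562/IM, and for TET1 (0.87), TET2 (0.23) and TET3 (0.037) in the interaction. Upper-quartile factors turned EZH2 in K562+L against K562 (-0.0049), DNMT1 in K562/IM against K562 (0.0081) and EZH2 in the interaction (0.084), and moved the median of all genes to 0.17 in K562/IM+L against K562 and 0.11 in the interaction. A fit over all 12 libraries turned EZH2 in K562/IM+L against K562/IM (-0.0053). Leaving out 1 library turned TET1 in K562+L against K562 (0.16 without K562 replicate 1, 0.10 without K562+L replicate 2), SUZ12 (-0.027 without K562 replicate 3) and TET1 (0.066 without K562 replicate 1) in K562/IM against K562, EZH2 in K562/IM+L against K562/IM (-0.0063 without K562/IM replicate 1), and DNMT3A (-5.2e-04 without K562 replicate 2, range up to 0.082) and TET3 (-0.067 without K562 replicate 3, -0.20 without K562/IM+L replicate 3, range up to 0.30) in K562/IM+L against K562. The cause was not tested. Among single genes, 46 further results lost their call, 14 gained one and 717 kept direction and call. Libraries with the same replicate number correlated at -0.52 to 0.36 in their deviations. Libraries with different numbers were not correlated for reference, so this does not decide whether the numbers pair the samples. The replicate block is given here only. With 3 libraries per group, the number of libraries limits the precision more than the depth does.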
